A study of Mus musculus with 93 samples.

Results

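Class I odorant receptor genes lie in a single cluster on mouse chromosome 7. They were taken here as every Olfr symbol of the deposited annotation whose entry starts in a fixed window of chromosome 7 (mm10) around that cluster. This gave 128 of the 1112 Olfr symbols of the expression table, and the other 984, of which 111 lie elsewhere on chromosome 7, served as the reference. The 128 genes run from base 102476773 to base 105369355, a span of 2893 kb, and 4 of them carry a pseudogene name. The nearest Olfr genes outside are Olfr521, 2709 kb before the cluster, and Olfr693, 1308 kb after it, so the edges of the window decided no membership.

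Odorant receptors are G protein-coupled receptors of the olfactory sensory neuron, and a mature neuron usually transcribes a single receptor gene from a single allele. Class I receptors, first known from fish, make up the smaller of the receptor classes of mammals. Many bind carboxylic acids, and in the mouse most are used by neurons of the dorsal part of the epithelium. Their cluster has an enhancer of its own, the J element, and the transcription factor Bcl11b is known to favour the choice of class II over class I genes.

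The data were single-cell RNA-seq libraries of C57BL/6 mouse olfactory epithelium, from cells picked by hand after dissociation. cDNA was primed with oligo(dT), which starts at the 3′ end of a transcript, and amplified by PCR. The 85 cells, each by its first library, carried the stage labels Progenitor (11 cells), Precursor (9 cells), Early Immature Neuron (27 cells), Late Immature Neuron (13 cells) and Mature Neuron (25 cells), and a further 8 libraries were labelled technical replicates of 8 of these cells. The labels name no animals and do not say how a stage was set, so each stage was 1 sample. No test between stages was made, and cells were not used as replicates of a stage in any test. Levels are the authors' FPKM, which are scaled to gene length and library size, and a gene with several table entries was given its highest one. Depth was recovered from the steps between low FPKM values and corresponded to 0.607 to 10.6 fragments for an FPKM of 1 on a 1-kb gene, with a median of 6.02. Between 2650 and 6419 table entries reached an FPKM of 1 in a cell. Cell names run in separate number ranges, and only D316 to D434 holds cells of every stage.

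The class label was checked against coding sequence. The nearest gene was the Olfr gene with the highest share of 12-base words in common, out of all such words of both genes. Of 127 members with a coding sequence in GENCODE M21, 120 were nearest to another member. Of the 974 other Olfr genes, 3 were nearest to a member. Olfr686 and Olfr658 were among the 7 members nearest to a gene outside the cluster, Olfr74 in the case of Olfr686, with which it shared 1.81% of its words. The coding part had a median length of 951 bases. The stretch around the conserved DRY motif, at the inner end of the third transmembrane segment, is shown for the members on which the results turn, since it shows how far genes found in the same cell differ from each other. Capitals mark the codons of D, R and the residue after them. All windows are 45 bases of GRCm38, 5′ to 3′ on the coding strand, from M21 transcripts. The first pair below was found in cell D200 and the second pair in cell D371.
Olfr610, chr7:103506552-103506596, minus strand: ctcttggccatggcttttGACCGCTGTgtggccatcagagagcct
Olfr570, chr7:102900714-102900758, plus strand: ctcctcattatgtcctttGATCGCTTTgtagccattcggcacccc
Olfr661, chr7:104688377-104688421, plus strand: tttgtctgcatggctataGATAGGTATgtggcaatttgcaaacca
Olfr628, chr7:103732276-103732320, plus strand: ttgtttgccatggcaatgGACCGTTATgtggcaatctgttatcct
Olfr653, chr7:104580008-104580052, plus strand: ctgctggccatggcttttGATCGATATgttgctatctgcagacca
Olfr78, chr7:102742618-102742662, minus strand: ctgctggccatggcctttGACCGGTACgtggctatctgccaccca
Olfr544, chr7:102484720-102484764, minus strand: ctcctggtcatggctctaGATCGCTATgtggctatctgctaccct
Olfr615, chr7:103560824-103560868, plus strand: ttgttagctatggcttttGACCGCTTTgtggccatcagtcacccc
Olfr685, chr7:105180916-105180960, minus strand: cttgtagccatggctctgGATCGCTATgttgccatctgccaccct
The Olfr610 and Olfr570 windows differed at 16 of 45 bases, and the Olfr661 and Olfr628 windows at 15. The Olfr610 window differed at 10 bases from that of Olfr1253, a class II gene also found in D200. Over the aligned coding sequences identity was 56.9% for Olfr610 and Olfr570 and 52.5% for Olfr661 and Olfr628, and neither pair shared a 31-base word. Among the compared pairs of a class I and a class II gene of the same cell, it ran from 50% (Olfr685 and Olfr1033) to 51.9% (Olfr570 and Olfr1253).

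Few class I genes were detected. An FPKM of 1 or more in at least 1 cell was reached by 11 of the 128 members (8.59%), against 19.2% of the 984 other Olfr genes. At 10 or more the counts were 10 members (7.81%) and 151 other Olfr genes (15.3%), and at 100 they were 6 members (4.69%) and 89 others (9.04%). No member reached 1000, against 43 other Olfr genes (4.37%). The remaining 117 members comprised 116 at 0 in all 85 cells and Olfr658, whose highest value was 0.111. Olfr558, a receptor also known from tissues outside the nose, was among the 116, as was Olfr545, the nearest relative of Olfr544 in coding sequence.

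The Early Immature Neuron stage held most of the detected genes. At an FPKM of 1 or more it had 9 members (7.03%), against 115 other Olfr genes (11.7%). Progenitors had 1 member (0.781%), against 4 other Olfr genes (0.407%). Precursors also had 1 (0.781%), against 14 others (1.42%). Late Immature Neurons had 1 member (0.781%), against 66 other Olfr genes (6.71%), and Mature Neurons 2 (1.56%), against 76 (7.72%). At 10 or more the counts were 0 members and 0 others in Progenitors, 1 member (0.781%) and 2 others (0.203%) in Precursors, 8 members (6.25%) and 89 others (9.04%) in Early Immature Neurons, 0 members and 39 others (3.96%) in Late Immature Neurons, and 1 member (0.781%) and 47 others (4.78%) in Mature Neurons. Outside the Early Immature Neuron stage these counts amount to 2 members or fewer.

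**Figure D1:**
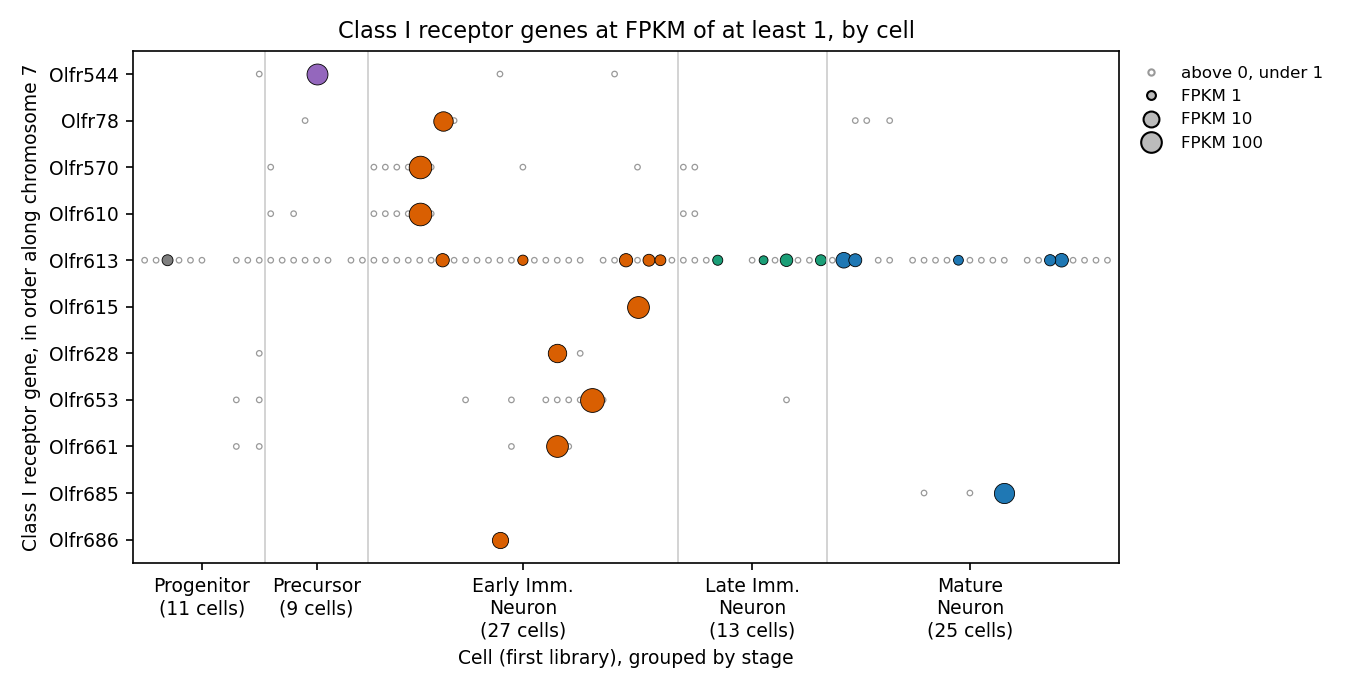
Each column is a cell (first library), grouped by stage, and each row one of the 11 class I receptor genes at an FPKM of at least 1, in order along chromosome 7. Filled points are FPKM of at least 1, with size rising with log10 FPKM and colour by stage. Open points lie above 0 and under 1. Apart from Olfr613, each gene has a single filled point.

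In 10 of the 11 detected genes the signal came from a single cell. Olfr653 had the highest value of the cluster, 645.6 in the Early Immature Neuron D394, where it was the only receptor at an FPKM of at least 10 and made up 98.4% of the summed Olfr FPKM. The next receptor there, Olfr1494, stood at 4.74. Olfr653 was above 0 in 10 other cells, at 0.367 or less. It was therefore high in 1 cell and near 0 in all others.

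Olfr544, a receptor known to bind azelaic acid, was at 119.6 in the Precursor D319 and led that cell, with 97.1% of the summed Olfr FPKM. The second receptor of D319, Olfr330, was at 2.21. Olfr544 was at 0.592 in the Progenitor D393, at 0.258 in the Early Immature Neuron D332, and at 0 in all Late Immature and Mature Neurons. No other Precursor had any receptor at 100, so the highest receptor value of that stage was that of Olfr544, in 1 cell. This value came from an entry without a strand that lies after the coding end, while the coding entry was at 0. Olfr544 shares 16.1% of the 31-base words of its M21 transcript with other Olfr genes.

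Both receptors of the pair in the Early Immature Neuron D200 were class I. Olfr610 was at 320.1 and Olfr570 at 305.3, ahead of the class II genes Olfr1253 at 164.8 and Olfr291 at 10.7. The levels of Olfr610 and Olfr570 thus differed by little, and neither made up more than 39.3% of the summed Olfr FPKM of the cell. The 2 genes lie 604 kb apart on opposite strands, and all 30 members between them were under an FPKM of 1 in that cell. In the technical replicate of D200, Olfr570 was at 850.3 and Olfr610 at 0, against 305.3 and 320.1 in the first library. The replicate also held Olfr518 at 270.6 and Olfr923 at 90.2, each at 0 in the first library, and Olfr1253 at 56.5. Of the receptors of D200 at an FPKM of at least 10, Olfr570 and Olfr1253 were thus seen in both libraries, and Olfr610 and Olfr291 in the first alone.

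The Early Immature Neuron D371 held Olfr661 at 186.7 and Olfr628 at 32.1, and no other receptor at 10. Both are class I, and they lie 955 kb apart with 32 members between them. All class I genes together gave 96.3% of the summed Olfr FPKM of the cell, with Olfr613 at 0.832 and Olfr653 at 0.133 as the only other class I genes above 0. Olfr628 shares 46.6% of the 31-base words of its M21 transcript with other genes, so reads over those words may not be separable. Its nearest Olfr gene in coding sequence is Olfr243, a member at 0 in every cell, which holds 79.3% of its 12-base words. Which genes hold the 31-base words was not recorded. Olfr661 shares 9.10% of its words.

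The other 4 genes were weaker or stood behind class II receptors. Olfr78, a receptor for short-chain fatty acids also known from the carotid body and blood vessels, led the Early Immature Neuron D215 at 53.6, ahead of Olfr877 at 14.2. D215 had the lowest depth of its stage, so that this value rested on about 141 fragments. Olfr615 was at 194.6 in the Early Immature Neuron D424, the third of 8 receptors at 10 or more, behind Olfr1431 at 302.1 and Olfr323 at 205.3. Olfr686 was at 11.8 in the Early Immature Neuron D332, the last of 13 such receptors. Olfr685 was at 78.9 in the Mature Neuron D274, where the class II gene Olfr1033 was at 15855. Olfr685 made up 0.494% of the summed Olfr FPKM of its cell, so only Olfr78 of these 4 led a cell.

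Low values elsewhere were a few fragments. The 10 genes high in a single cell were above 0 and under 1 in other cells 45 times, at a median of 0.10% of the gene's highest value and a range of 0.00609% to 1.24%. These values corresponded to 1.0 to 14.7 fragments with a median of 2.02, against 141 to 14435 fragments for the 10 values at an FPKM of at least 10. Of the 45, 43 were in cells of the same number range as the cell with the highest value. For Olfr653 this held for 10 of 10, for Olfr610 for 9 of 9 and for Olfr570 for 8 of 10. Whether reads passed between libraries was not tested.

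Olfr613 differed from the other 10. It was above 0 in 76 of the 85 cells and reached 1 in 15 of them, but its highest value was 8.93. By stage, the lowest, median and highest values were 0, 0.0610 and 1.74 in Progenitors, 0, 0.0425 and 0.765 in Precursors, 0, 0.299 and 3.74 in Early Immature Neurons, 0, 0.331 and 2.85 in Late Immature Neurons, and 0, 0.139 and 8.93 in Mature Neurons. The ranges overlapped in all 5 stages. The 15 cells at 1 or more were 1 Progenitor, 5 Early Immature, 4 Late Immature and 5 Mature Neurons. Its assembled entry covers 5137 bases on the plus strand, of which 951 are coding, and 6.77% of the 31-base words of its transcript occur in other genes. In no cell with a receptor at 10 was Olfr613 the leading one.

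Class I receptors led 4 of the 61 cells whose leading receptor reached an FPKM of 100, or 6.56% (exact Clopper-Pearson 95% interval 1.82 to 15.9%). All intervals and limits of this kind cover counting error only, and treat cells, or detections, as independent draws. The labels name no animals, so variation between animals is not covered. In Early Immature Neurons 3 of 24 such cells were led by a class I gene (12.5%, 2.66 to 32.4%), and the only such Precursor was D319. None of 12 Late Immature Neurons was, with an exact upper limit of 26.5%, and none of 24 Mature Neurons, with an upper limit of 14.2%. Over both later stages the count was 0 of 36, with an upper limit of 9.74%. No difference between stages was tested. As a base for these shares, members were 128 of the 1112 Olfr symbols. An FPKM of 100 was reached in some cell by 6 members and 89 other Olfr genes.

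Where a class I gene led an Early Immature Neuron, its level lay in the middle or lower part of that stage. The Precursor D319, at 119.6, instead had the highest leader of its stage. The other Precursor leaders at 10 or more were at 20.8 and 73.9. Among Early Immature Neurons with a leader at 100 or more, the median leader was at 320.1 FPKM in the 3 cells led by class I and at 919.0 in the 21 led by other receptors, whose range of 109.7 to 9610 enclosed the class I values. Ranked among all 26 Early Immature Neurons with a leader at 10 or more, D394 was 12th, D200 16th, D371 22nd and D215 25th. Of the 44 cells with a leader at 1000 or more, none was led by class I, with an exact upper limit of 8.04%.

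**Figure D2:**
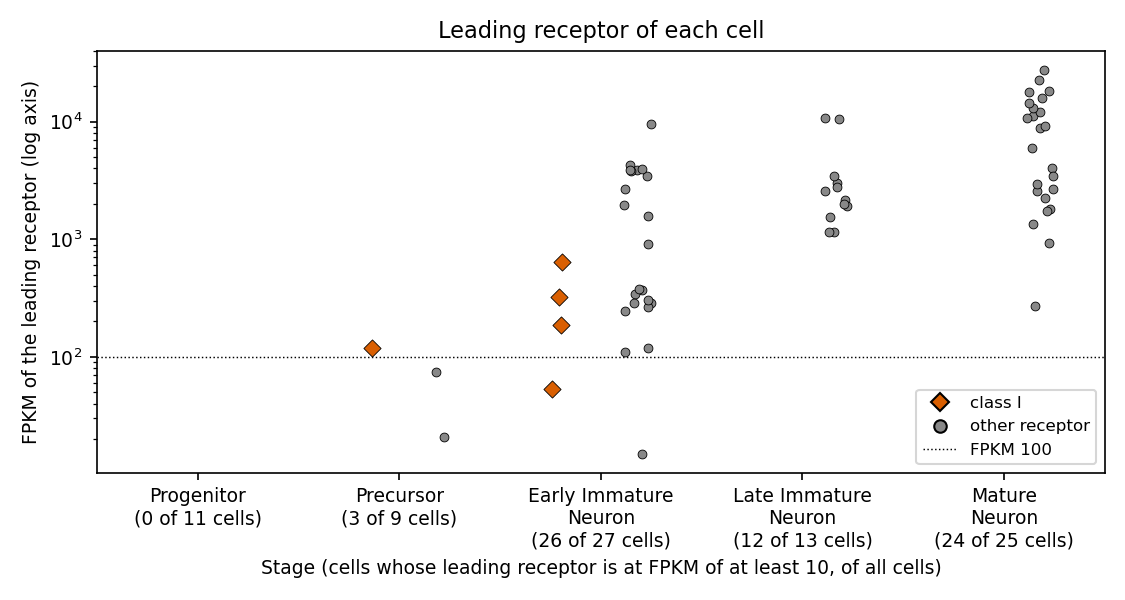
FPKM of the leading receptor of each cell (log axis) by stage, for cells led by a class I gene (diamonds) and by another Olfr gene (circles), with a dotted line at FPKM 100. The 5 class I leaders lie between 53.6 and 645.6 in Precursor and Early Immature Neuron cells, and none is seen among the 36 Late Immature and Mature Neurons.

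The share of cells in which any class I gene reached an FPKM of 1 was 9.09% in Progenitors (1 of 11), 11.1% in Precursors (1 of 9), 37.0% in Early Immature Neurons (10 of 27), 30.8% in Late Immature Neurons (4 of 13) and 24% in Mature Neurons (6 of 25). Most of these were Olfr613. Without it the shares were 0, 11.1%, 22.2%, 0 and 4%, the same as those at an FPKM of at least 10. Class I genes made up 6.67% of receptor detections at 1 or more in Early Immature Neurons (13 detections, 3.6 to 11.1%), 4 of 119 in Late Immature Neurons (3.36%, 0.923 to 8.38%) and 6 of 241 in Mature Neurons (2.49%, 0.919 to 5.34%). Within the number range D316 to D434 these last shares were 6.87%, 5% and 6.06%, over 19, 6 and 4 cells. As a base for the shares of detections, members were 128 of the 1112 Olfr symbols.

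The kind of table entry moved with detection. The deposited annotation replaces the GENCODE model of some Olfr genes by assembled entries, and 10 of the 128 members (7.81%) have one, against 125 of the 984 other Olfr genes (12.7%). Of those 10 members 9 were detected at an FPKM of at least 1 (90%), against 109 of 125 others (87.2%). Of the 118 members with annotated entries alone 2 were detected (1.69%), Olfr78 and Olfr685, against 80 of 859 others (9.31%). From which reads the entries were assembled is not given in the sources used here, so entry kind and detection may not be independent.

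The annotated models often lack a 3′ end. For 80 of 117 annotated members the deposited model stops within 3 bases of the coding end, against 574 of 862 other Olfr genes. The median number of bases after the coding end was 3 for members as for the others, whereas in GENCODE M21 it was 1643 for members and 1522 for the others. M21 extends the 3′ end by over 100 bases for 98 of the 117 members and 755 of the 862 others. Of the members detected through an annotated entry, Olfr78 has 1321 deposited bases after its coding end and Olfr685 has 51. With cDNA primed at the 3′ end, a member at 0 on such a model was not measured over most of its 3′ untranslated part, and how many of the 116 this touches was not tested.

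A pair of entries was deposited for each of 4 members, Olfr544, Olfr568, Olfr615 and Olfr661. In each, one entry covers the coding part and was at 0 in all 93 libraries. All the signal lay in the other entry, which has no strand and starts after the coding end, by 1360 bases for Olfr544, 532 for Olfr568, 62 for Olfr615 and 1152 for Olfr661. M21 exons of the same gene cover 726 of the 774 bases of that entry for Olfr544, 1297 of 1297 for Olfr615 and 1229 of 1999 for Olfr661, but 0 of 408 for Olfr568. Among other Olfr genes with such a pair, the coding entry was at 0 in 14 of 37. For Olfr615 the signal thus lay within the annotated 3′ part of the gene. For Olfr544 and Olfr661 the entry also holds bases outside M21 exons, and FPKM per entry does not place the reads within it, while no M21 exon of Olfr568 covers the entry named after it.

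**Figure D3:**
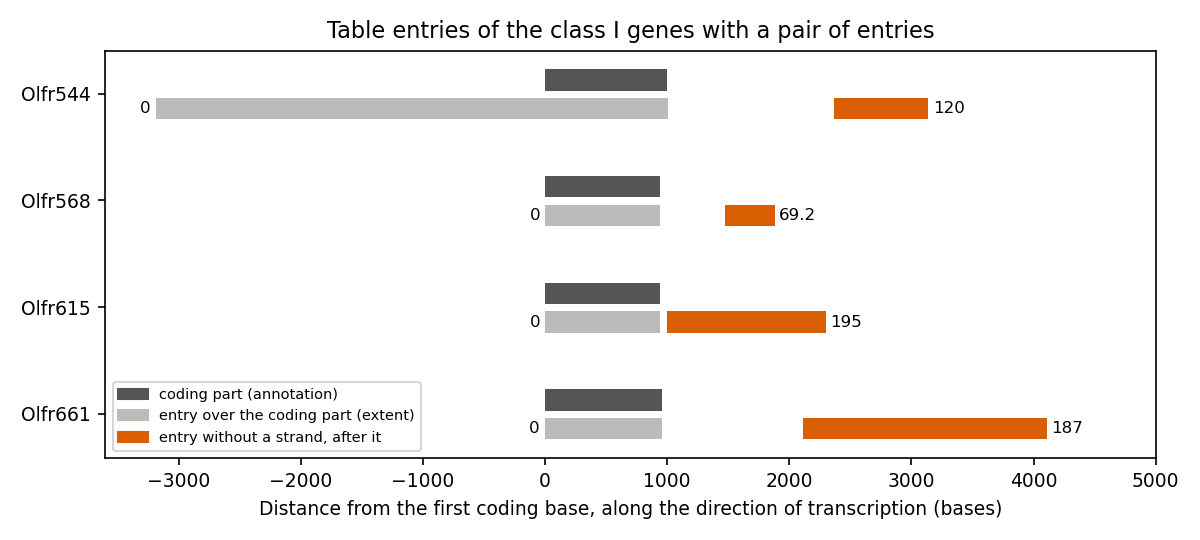
Extent of the table entries of Olfr544, Olfr568, Olfr615 and Olfr661 along the direction of transcription, in bases from the first coding base. Dark bars are coding parts, light bars the entries over them (0 in every library), and orange bars the entries without a strand, each labelled with its highest FPKM in any library, from 69.2 for Olfr568 to 194.6 for Olfr615.

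The authors' deposited table of receptors assigned to cells lists 134 pairs in 64 cells, of which 7 (5.22%) are class I. Members are 128 of the 1112 Olfr symbols. The 7 pairs are Olfr610 and Olfr570 in D200, Olfr78 in D215, Olfr685 in D274, Olfr686 in D332, Olfr628 in D371 and Olfr653 in D394. Each has the FPKM of the gene table. None of the 134 pairs rests on an entry without a strand, of which the annotation has 32 for Olfr genes. Olfr544 in D319, Olfr661 in D371 and Olfr615 in D424, which rest on such entries, are not in the authors' deposited table. Why they are absent was not tested. D371 appears in that table with Olfr628 as its class I receptor. Counted from that table, class I genes led 2 cells, D200 and D394, at 100 or more.

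Positions along the cluster gave no single block of detected genes. The 11 genes lay between 5.21 kb and 2725 kb from the first base of the cluster. Olfr610, Olfr613 and Olfr615 were closest to each other, with starts 44.7 and 10.1 kb apart, and the longest gap was 846.2 kb, from Olfr628 to Olfr653. Of 42 non-receptor entries between members, 13 reached an FPKM of 1 (31%) and 5 reached 10 (11.9%), against 8.59% and 7.81% of the members. Trim68, a tripartite motif gene near the start of the cluster, reached 188.2 in the Late Immature Neuron D230, and E030002O03Rik reached 41.9 in D343. Trim30a reached 31 in D357 and Hbb-bs, an adult beta globin gene, 10.6 in D329. None of these 4 cells held a class I receptor at 10 or more.

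The remaining neighbour was high in a cell with class I receptors. Hbb-y, the embryonic beta-type globin gene (bases 103851745 to 103853240, minus strand, 3 exons), was at 385.2 in D371, the Early Immature Neuron that held Olfr661 and Olfr628. Its other values were 0.494 in D373, 0.409 in D406, 0.329 in D317 and 0.294 in D434, and it was at 0 in the remaining 80 cells. The adult beta globins Hbb-bs and Hbb-bt and the alpha globins Hba-a1, Hba-a2 and Hba-x were at 0 in D371. Hbb-y lies between Olfr628 and Olfr661, so 3 genes of the cluster were high together in that 1 cell.

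**Figure D4:**
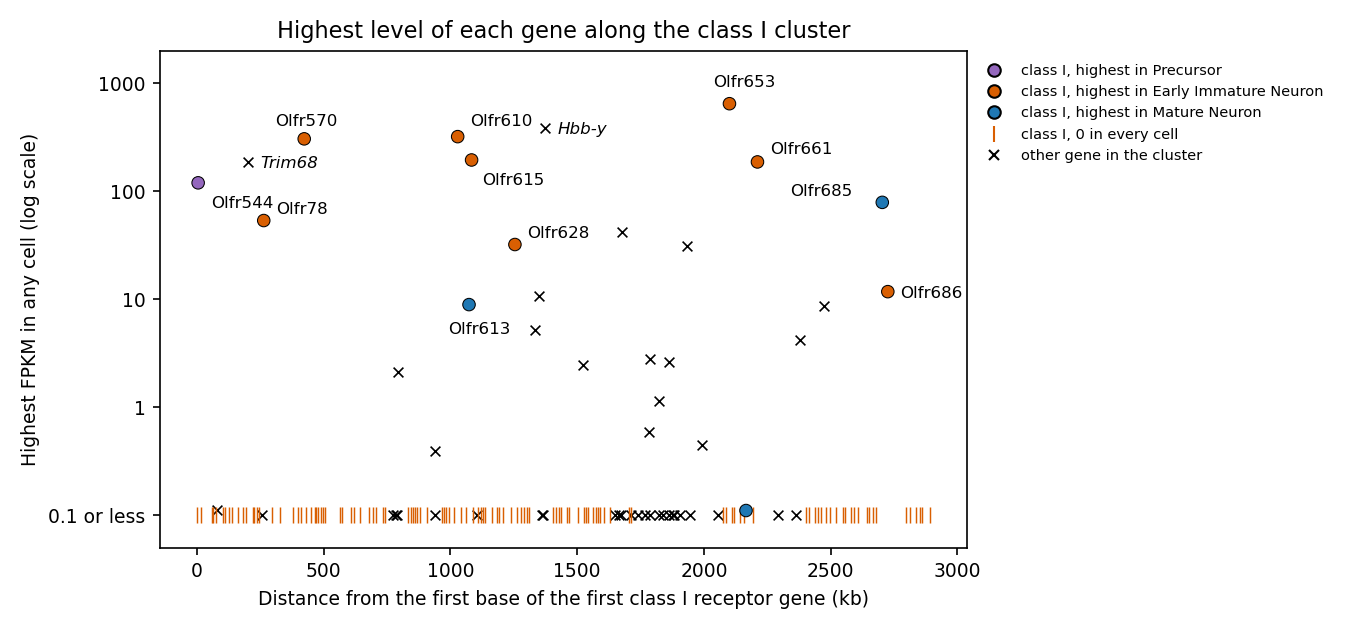
Highest FPKM in any cell (log scale, values of 0.1 or less on the lowest line) against distance in kb from the first base of the first class I gene. Points are class I genes above 0, coloured by the stage of their highest value, ticks are the 116 class I genes at 0, and crosses are the 42 other genes. Olfr653 at 645.6 is the highest, and Hbb-y at 385.2 is the highest cross.

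The cells that held a class I gene at 10 or more differed in zone genes. Acsm4, an enzyme gene of the dorsal zone, was at 146.0 in D200, 54.9 in D371 and 255.1 in D274, and under 1 in D319, D394, D424, D215 and D332. Ncam2, an adhesion molecule of the ventral zones, was at 107.4 in D394 and 129.6 in D332 and under 1 in the other 6. Nqo1, a second dorsal gene, was under 1 in all 8. Of the 5 cells led by a class I gene, D200 and D371 thus had a dorsal gene, D394 (Olfr653) had the ventral one, and D319 and D215 had none of the 3. Among the other 21 Early Immature Neurons, Acsm4 reached 10 in 3, Nqo1 in 5 and Ncam2 in 5.

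Bcl11b, the class choice factor, was at 0.172 in D371, 5.58 in D394, 19.2 in D200, 19.3 in D424, 46.1 in D215 and 69.5 in D332, against a lowest, median and highest value of 0.0853, 62.3 and 372.0 in the other 21 Early Immature Neurons. In 5 of these 6 cells it was below the median of the others, and the ranges overlap. It was at 159.4 in the Precursor D319, led by Olfr544, against a median of 109.6 in the other 8 Precursors. Lhx2, a homeodomain factor needed for receptor expression, was at 59.3 in D394, 141.2 in D332, 499.0 in D215, 763.3 in D424, 917.5 in D371 and 1156 in D200, against a lowest, median and highest value of 0.860, 139.6 and 871.5 in the other 21 Early Immature Neurons. D371 and D200, both led by class I genes, were above all 21, and D394 and D332 were near or below their median. Lhx2 is 1 of 9 listed receptor expression factors, with Ldb1, Emx2, Ebf1 to Ebf4, Kdm1a and Atf5. In D371 Emx2 at 0.874 and Kdm1a at 0.0613 were below the lowest values of the 21, 0.961 and 0.0639. In D200 Kdm1a at 107.9 and Ebf2 at 1109 were above their highest values, 102.4 and 749.1. The remaining listed factors of D371 and D200 lay within the range of the 21. The 6 Early Immature Neurons were chosen by their receptors and each gene was read once per cell, so no test was made.

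**Figure D5:**
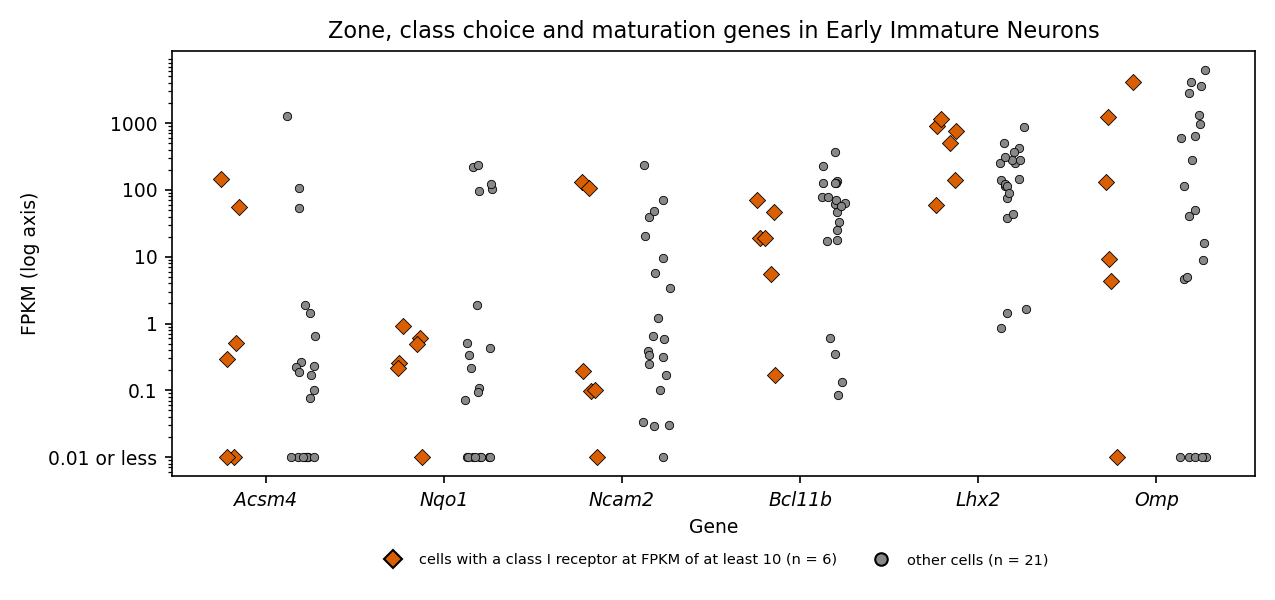
FPKM (log axis, values of 0.01 or less on the lowest line) of Acsm4 and Nqo1 (dorsal), Ncam2 (ventral), Bcl11b, Lhx2 and Omp in Early Immature Neurons, for the 6 cells with a class I gene at 10 or more (diamonds) and the other 21 (circles). The ranges of both sets overlap for all 6 genes, and for Lhx2 the diamonds of D200 (1156) and D371 (917.5) lie above every circle.

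Maturity genes also varied among the cells with class I receptors. Omp, the olfactory marker protein of mature neurons, was at 0 in D319 and D332, 4.29 in D371, 9.39 in D424, 129.3 in D200, 1225 in D394, 4143 in D215 and 5708 in D274. Gap43, a growth cone gene of immature neurons, was at 51.6 in D319, 625.5 in D394, 293.0 in D200, 193.0 in D424, 146.7 in D332, 4.77 in D371 and 0 in D215 and D274. The listed genes of D215, labelled Early Immature Neuron, did not all point to one stage. Its Gap43 and Omp lay within the range of the Late Immature Neurons. Gng8, a G protein subunit gene of immature neurons, was at 365.6, above the highest Late Immature value of 18.3, and Gnal at 10.3 and Cnga2 at 0.431 were below the lowest Late Immature values of 172.3 and 57.2. Of the 10 transduction and maturation genes listed, D274 had all 10 at an FPKM of at least 1, D394 had 9, D215 had 8, D200 and D424 had 7, D371 had 5, D332 had 4 and D319 had 1. The cells with class I genes thus ran from no Omp and 1 transduction gene in D319 to the full list in D274.

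Genes of other cell types had smaller sums in 6 of the 8 cells with a class I gene at 10 than in D215 and D274. Of 21 listed genes (sustentacular, basal, gland, microvillous, blood and immune), the 6 cells D319, D394, D200, D424, D371 and D332 had 0 to 5 at an FPKM of at least 1, with sums of 0.969 to 42.5, the highest in D332, where Cbr2 was at 42.4. D215 had a sum of 344.3, of which the sustentacular gene Cbr2 gave 342.1, and D274 a sum of 883.0, with Cbr2 at 715.6. Across the other Early Immature Neurons the sums ran from 0 to 3587 with a median of 8.60, which D215, D332 and D424 (16.7) exceeded. Across the other Mature Neurons, the stage of D274, they ran from 0.936 to 2347 with a median of 232.3. In D274 the sustentacular gene Sult1c1 was also at 135.2 and the gland gene Bpifb9a at 32.2, and in D424 the globins Hbb-bs, Hba-a1, Hba-a2 and Hbb-bt were at 7.23, 3.03, 1.91 and 1.0. Of the 21 genes, 9 were at 0 in all 8 cells, namely Cyp1a2, Krt14, Trp63, Muc5b, Aqp5, Ascl3, S100a8, S100a9 and Lyz2. Without the 29 of 65 neurons that had such a gene at 100 or more, 9 class I genes remained detected and class I genes still led 4 cells at 100 or more.

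Promoter sequence was read for 107 members from RefSeq windows of 300 bases (GRCm38.p6). The homeodomain core TAATNA, searched on both strands, was in 62.6% of them, against 66.6% of 817 other Olfr windows and 26.8% of all 27025 windows. The related TAATTG, which no TAATNA match can equal, was in 20.6% of member windows, 23.6% of other Olfr windows and 8.15% of all. The olf-1 type motif CCCNNGGG was in 2.80%, 3.06% and 13.4%, and a longer olf-1 motif that contains it in 0, 0.612% and 0.914%. Each window runs from upstream of the RefSeq start to a short way past it. For only 11 of the 107 windows was that RefSeq start within 10 bases of the first base of the gene in M21. Most windows thus lie at the start of an annotated model rather than at the most upstream known start. Olfr544 is among the 11, and its window is shown because this gene led a Precursor cell. The capitals mark its single TAATTG.
Olfr544 promoter, chr7:102488258-102488557, minus strand: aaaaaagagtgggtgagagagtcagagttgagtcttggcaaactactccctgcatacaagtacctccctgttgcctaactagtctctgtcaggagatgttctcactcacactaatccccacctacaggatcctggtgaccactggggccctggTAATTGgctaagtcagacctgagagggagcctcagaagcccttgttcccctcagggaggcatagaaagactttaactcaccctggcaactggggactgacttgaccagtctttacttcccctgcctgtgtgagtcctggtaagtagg
A match is a description of letters and does not show binding.

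The 8 technical replicates gave a measure of how stable a receptor value was. At an FPKM of at least 10, 22 receptor and cell pairs were seen in both libraries of a cell, which is 48.9% of the 45 pairs in the replicates and 45.8% of the 48 in the first libraries. At 100 or more it was 13, or 72.2% of 18 and 59.1% of 22. The leading receptor was the same in 5 of the 8 cells. For class I, the replicate of D200 kept Olfr570 and not Olfr610, and Olfr568 was at 69.2 in the replicate of the Mature Neuron D251, 5.35 in that of D230 and 3.19 in that of D244, against 0 in all 3 first libraries. These Olfr568 values were 56.5, 1.09 and 1.14 fragments. Olfr570 was also above 0 in the replicates of D230 (4.93), D244 (1.13), D243 (0.799), D233 (0.737), D250 (0.713) and D251 (0.246), each at 0 in the first library. In that of D187 it was at 0.836, against 0.110. Whether reads passed between the replicate libraries was not tested. A pair of class I genes in 1 library, as in D200 and D371, thus rests on values that vary between libraries of the same cell, and D371 has no replicate.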

How the data were processed

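Single-cell cDNA of mouse olfactory epithelium was sequenced in 93 libraries of 85 cells. Per the submitters' processing notes, the tools used included Cufflinks 2.2.1, TopHat2 2.0.14, cutadapt 1.2.1, Trim Galore and CASAVA 1.8.2, and the build was mm10. The authors deposited FPKM per gene entry (32975 entries), a table of receptor and cell pairs in FPKM, and the annotation, a GENCODE set with assembled Olfr entries. FPKM is not a count, so no count test was run. Groups came from the labels' titles. All columns of the table were mapped.

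Members were Olfr symbols starting in the stated interval, with the highest entry per symbol. The members and lists were chosen with earlier results of these data known. Named genes are members at an FPKM of at least 10, Olfr613, Olfr568, Olfr558 and neighbours in the cluster. Listed zone, class choice, receptor expression, transduction and other cell type genes are also named. Olfr658, Olfr545 and Olfr243 were named after their values were seen.

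Depth was taken from the spacing of low FPKM of 1304 single-exon genes (800 to 4000 bases, length less 200), a step tested on simulated libraries. Shares carry exact Clopper-Pearson 95% intervals, and a count of 0 carries the upper limit of that interval. Sequences came from GENCODE M21 transcripts (GRCm38, the same assembly as mm10) and RefSeq promoters. A planned search of protein motifs was replaced by coding-sequence words. Python 3.11.15, pandas 2.3.3, numpy 2.4.6, scipy 1.17.1 and matplotlib 3.10.9 were used. Alternatives tried were other detection levels, annotated or protein coding entries alone, replicate libraries, one number range, cells without other cell type genes, entries with a strand, the cluster without Olfr613, and the authors' pairs.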

Additional observations from a re-analysis of the deposited data

Results flagged for a closer look

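Among the 9 Precursors the summed class I FPKM of D319 was 119.6, from Olfr544, and stood far from the others. The next highest sum was 0.765 and the lowest 0, so the gap was 0.994 of the whole range, against a 95% critical value of 0.493. Chance flags about 1 in 20 groups of values with a normal spread, which receptor levels near 0 in most cells do not have, so this is a description of 1 high cell and not a test. Of the 5 stages only the Precursors have a number of cells for which it was examined.

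A pair of values came from technical replicates, which the comparisons of stages did not use. Olfr568 was at 69.2 in the replicate of the Mature Neuron D251, against 0 in the first library, on an entry without a strand that no M21 exon of the gene covers. Olfr570 was at 850.3 in the replicate of the Early Immature Neuron D200, against 305.3 in the first library.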

How the results depend on the processing

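Class I genes detected numbered 11, and 4 cells were led by one at an FPKM of at least 100. With the replicate in place of the first library, or without cells with other cell type genes, each of the 10 results stayed within its counting error or within 1.5 times. The genes behind them changed with the replicate. Olfr610 fell to 0 in D200, which Olfr570 then led, and Olfr568 entered at 69.2 in D251, so the count of 11 was not of the same genes. At an FPKM of at least 10 the share of cells with a class I gene was 0 in Progenitors, 0 in Late Immature and 4% in Mature Neurons, and the share of detections in Late Immature Neurons was 0. Requiring 1% of the gene's highest value raised the share of detections to 10.6% in Early Immature, 9.30% in Late Immature and 7.59% in Mature Neurons, against 6.67%, 3.36% and 2.49%. With annotated entries alone 2 genes were detected, no cell was led by class I, the share of cells was 0 in Progenitors, Precursors and Late Immature Neurons, 3.70% in Early Immature and 4% in Mature Neurons, and the share of detections was 0 in Late Immature and 0.599% in Mature Neurons. Protein coding entries alone gave the same values except 0.606% for the last, since assembled entries carry no gene type. Within D316 to D434, 7 genes were detected, and the share of cells was 0 in Progenitors and 50% in Mature Neurons, with 6.06% of detections there. Without entries that lack a strand the share in Precursors was 0 and 2 cells were led by class I, as in the authors' deposited table, which also gave 2. No cell was led at 1000 or more (0). Without Olfr613 the share of cells was 0 in Progenitors, 0 in Late Immature and 4% in Mature Neurons, and that of detections 0 and 0.424% in the last pair of stages. The alternatives on strand and Olfr613 were chosen after seeing the data. No paired analysis was possible because each cell belongs to 1 stage.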
